A study of Mus musculus with 6 samples.

Results

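The genes described here are 8 regulators and markers of undifferentiated spermatogonia: Zbtb16, Sall4, Foxo1, Lin28a, Taf4b, Utf1, Upp1 and Tcl1. They were chosen by name and make up 8 of the 41053 gene names in the deposited count tables. RNA had been sequenced from lines of adult mouse spermatogonial stem cells grown in serum-free medium with growth factors. The tested lines came from cells electroporated with a fluorescent reporter plasmid that also carried a guide RNA against Ephb2, a receptor tyrosine kinase that binds ephrin ligands; the WT lines received the reporter without the guide. Each line was a subclone of sorted cells. There were 3 libraries labelled Ephb2-KO and 3 labelled WT, and in both groups replicates 1 and 2 were at passage 20 and replicate 3 was at passage 18. The labels do not say whether same-numbered lines descend from 1 culture, so the p-values measure only the spread between these 6 libraries.

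Libraries held 21772404 to 33140336 counts in the Ephb2-KO group and 24928648 to 34047758 in the WT group. Ephb2 itself had 37.1, 16.5 and 13.4 counts per 1000000 of the scaled library total (CPM) in Ephb2-KO replicates 1, 2 and 3, against 21.3, 27.1 and 10.8 CPM in WT. In the Ephb2-KO libraries the targeted mRNA was thus at no lower level (log2 fold change 0.18, SE 0.50, edgeR adjusted p 1.0), so its level does not check the labels, and a small edit that leaves the mRNA in place would not show in these counts. Germ cell mRNA was present. Dazl, an RNA-binding protein of germ cells, had a mean of 1016 transcripts per 1000000 (TPM) in Ephb2-KO and 1038 TPM in WT libraries. Ddx4, a germ cell helicase, had 156 TPM in Ephb2-KO and 139 TPM in WT libraries. The libraries were not of germ cell mRNA alone: 15 fibroblast and stromal markers took 0.765% to 2.71% of counts in Ephb2-KO and 0.508% to 2.36% in WT libraries.

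Spermatogonial stem cells belong to the undifferentiated spermatogonia, which either renew themselves or move on to differentiation. Glial cell line-derived neurotrophic factor keeps mouse stem cells renewing, partly through AKT, a kinase that phosphorylates FOXO1 and keeps it out of the nucleus. ZBTB16 (also called PLZF), SALL4, FOXO1 and TAF4B act on transcription, and loss of ZBTB16, FOXO1 or TAF4B in mice leads to a gradual loss of the germ line. LIN28A is an RNA-binding protein that blocks the maturation of let-7 microRNAs.

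Promoter sequences are shown for the transcription-factor, RNA-binding and enzyme genes for which the RefSeq table (GRCm38.p6) had an entry, because below 3 of them varied between replicate numbers and the other did not. The table held 5 of the 8 genes (Foxo1, Lin28a, Utf1, Upp1 and Tcl1). Each run reads 5′ to 3′ on the strand of the gene and ends before both the RefSeq start and the 5′ end of the gene in the deposited files. Capitals mark matches, on either strand, to GGGCGG (the GC box) or CCAAT. The windows are chr3:52268087-52268336 (plus strand) for Foxo1, chr4:134018842-134019066 (minus) for Lin28a, chr7:139943606-139943788 (plus) for Utf1 and chr11:9117758-9118007 (plus) for Upp1.
Foxo1: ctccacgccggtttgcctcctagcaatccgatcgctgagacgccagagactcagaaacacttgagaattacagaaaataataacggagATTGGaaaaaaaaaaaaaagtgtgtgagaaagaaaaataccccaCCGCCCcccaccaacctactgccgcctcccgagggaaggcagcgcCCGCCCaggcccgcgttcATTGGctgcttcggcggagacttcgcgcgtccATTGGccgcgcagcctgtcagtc
Lin28a: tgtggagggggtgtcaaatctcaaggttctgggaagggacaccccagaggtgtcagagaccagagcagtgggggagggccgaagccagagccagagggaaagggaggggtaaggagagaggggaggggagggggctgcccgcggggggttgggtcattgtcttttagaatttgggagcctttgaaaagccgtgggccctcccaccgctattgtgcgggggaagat
Utf1: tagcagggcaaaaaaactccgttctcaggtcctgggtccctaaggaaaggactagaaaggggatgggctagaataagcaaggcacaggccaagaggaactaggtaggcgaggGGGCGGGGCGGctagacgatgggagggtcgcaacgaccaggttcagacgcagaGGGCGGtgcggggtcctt
Upp1: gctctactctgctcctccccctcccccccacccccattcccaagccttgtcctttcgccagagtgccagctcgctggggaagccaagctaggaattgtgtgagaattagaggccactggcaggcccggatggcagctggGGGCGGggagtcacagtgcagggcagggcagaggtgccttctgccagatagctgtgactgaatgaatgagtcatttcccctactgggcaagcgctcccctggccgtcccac

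The Foxo1 window of 250 bases held 2 GC boxes and 3 CCAAT matches. Utf1 had 3 GC boxes in 183 bases, 2 of which share a base, and Upp1 had 1 in 250 bases. Lin28a had no match to either motif in 225 bases. Among windows of 250 bases from all 32851 promoters in the table, 32.7% held GGGCGG and 33.8% held CCAAT, so neither is unusual. Further motifs searched on both strands had no match in these 4 windows. Of all windows of 250 bases, 12.4% held the TATA box TATAAA and 3.17% held the FOXO-bound letters GTAAACA. The octamer ATGCAAAT, bound by POU proteins, was in 1.60%, and the E-box CACGTG was in 6.02%. The absence of these letters from a window says nothing about the factor.

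Levels of different genes can be compared only per length, and on the TPM scale, which divides by the deposited exon length, the 8 genes spanned a wide range. Lin28a was the most abundant, at 256 ± 180 TPM in Ephb2-KO and 233 ± 60.1 TPM in WT libraries (SD, n = 3 each). Its mean over the 6 libraries was 245 TPM, at the 95.7th percentile of the 15263 genes tested. Zbtb16 followed at 88.3 ± 43.8 TPM in Ephb2-KO and 99.8 ± 41.9 TPM in WT libraries. Lin28a was above Zbtb16, and Zbtb16 above Sall4, in 6 of 6 libraries.

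Sall4, Taf4b, Foxo1 and Utf1 lay close together, with means over the 6 libraries of 65.4, 58.8, 48.5 and 46.3 TPM. Their order was not stable: Sall4 exceeded Taf4b in 4 of 6 libraries, Taf4b exceeded Foxo1 in 3, and Foxo1 exceeded Utf1 in 3. Upp1 was lower, at 15.8 ± 2.26 TPM in Ephb2-KO and 22.9 ± 2.27 TPM in WT libraries, and Utf1 was above it in 5 of 6 libraries.

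Tcl1, which encodes a coactivator of AKT, was close to undetected in these cells. It had 2, 0 and 2 reads in Ephb2-KO replicates 1 to 3, against 3, 1 and 2 reads in WT. No library held more than the floor of 3 counts, which corresponds to 0.0803 to 0.147 CPM, so Tcl1 was neither tested nor given a fold change. Its relatives Tcl1b1 to Tcl1b5 were near 0 as well: 1, 68, 0, 5 and 0 reads summed over the 6 libraries. Mtcp1, the remaining family member, had 3.73 ± 1.06 TPM in Ephb2-KO and 3.34 ± 1.02 TPM in WT libraries.

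Lin28a and Taf4b were well above their close paralogs. Lin28b, the paralog that also blocks let-7, had 11.0 ± 4.02 TPM in Ephb2-KO and 11.6 ± 4.43 TPM in WT libraries. Taf4a, the TFIID subunit that TAF4B can replace, had 10.6 ± 4.99 TPM in Ephb2-KO and 9.77 ± 3.96 TPM in WT libraries. Sall2 came nearest to Sall4, at 42.3 ± 15.6 TPM in Ephb2-KO and 37.1 ± 20.3 TPM in WT libraries. Foxo1 was not the leading FOXO gene: Foxo3 had 64.7 ± 21.0 TPM in Ephb2-KO and 55.4 ± 13.8 TPM in WT libraries, and Foxo4 had 46.5 ± 14.3 TPM in Ephb2-KO and 45.4 ± 14.6 TPM in WT libraries. Upp2, the second uridine phosphorylase gene, had only 0.394 ± 0.192 TPM in Ephb2-KO and 0.495 ± 0.320 TPM in WT libraries. These are descriptions of level, with no test between genes.

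**Figure D1:**
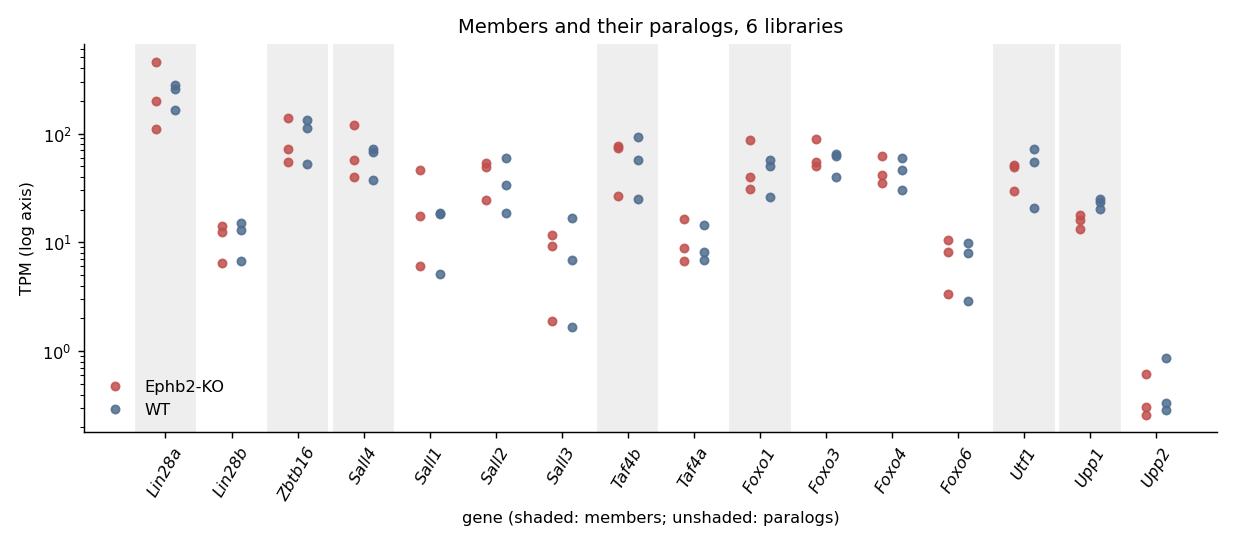
TPM (log axis) of the 7 tested genes (shaded) and paralogs of some of them in each library, Ephb2-KO points left of WT points. Lin28a sits highest, at a mean of 245 TPM over the 6 libraries. Upp2 sits lowest, at means of 0.394 TPM in Ephb2-KO and 0.495 TPM in WT libraries. Tcl1 and its relatives are not drawn.

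The question of the design was whether the groups differ. None of the 7 tested genes differed between libraries labelled Ephb2-KO and WT: 0 of 7 passed an adjusted p of 0.05 in edgeR's quasi-likelihood test, where 0% of all 15263 genes passed. Before adjustment, 32 of all genes (0.21%) and 0 of the 7 had p under 0.05. DESeq2 called 4 genes, none of them among the 7. The values of each gene follow, in order of role, with fold changes from the fit that leaves out the replicate number.

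Zbtb16, on chr9 (48654311 to 48835945, minus strand; all positions are GRCm38 as in the deposited files), encodes a zinc finger repressor. It had 226, 153 and 118 CPM in Ephb2-KO replicates 1, 2 and 3, against 225, 212 and 109.7 CPM in WT. In both groups replicate 3 was lowest, and the ranges overlapped almost wholly. The log2 fold change, Ephb2-KO over WT, was -0.14 (SE 0.35; 95% interval of the fold 0.510 to 1.62), and it was above 0 without Ephb2-KO replicate 3 (0.057) or WT replicate 1 (0.040).

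Sall4, on chr2 (168748332 to 168767943, minus strand), encodes a zinc finger factor that binds ZBTB16. It had 212, 130.2 and 91.9 CPM in Ephb2-KO libraries, against 132, 137 and 84.6 CPM in WT. Ephb2-KO replicate 1 was above all others, the other 3 passage 20 libraries lay close together, and both replicate 3 libraries were lowest. The log2 fold change was 0.30 (SE 0.35; 95% interval of the fold 0.695 to 2.17), and it was -0.09 without Ephb2-KO replicate 1.

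Foxo1, on chr3 (52268337 to 52350109, plus strand), encodes the FOXO factor required by mouse spermatogonial stem cells. It had 154, 91.9 and 72.1 CPM in Ephb2-KO libraries, against 104, 103 and 59.5 CPM in WT. Its pattern was that of Sall4, with Ephb2-KO replicate 1 highest. The log2 fold change was 0.26 (SE 0.35; 95% interval of the fold 0.672 to 2.12), and -0.12 without that library.

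Taf4b, on chr18 (14783245 to 14900359, plus strand), encodes a gonad-enriched subunit of the general factor TFIID. It had 126, 159 and 57.0 CPM in Ephb2-KO libraries, against 97.9, 176 and 52.7 CPM in WT. Unlike the genes above, it was highest in replicate 2 of both groups. The groups overlapped throughout (log2 fold change 0.06, SE 0.51, 95% interval of the fold 0.451 to 2.42), and the sign turned without Ephb2-KO replicate 1 (-0.017), Ephb2-KO replicate 2 (-0.25), WT replicate 1 (-0.010) or WT replicate 3 (-0.27).

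Utf1, on chr7 (139943789 to 139945112, plus strand), encodes a chromatin-bound protein of embryonic stem cells and early spermatogonia. It had 19.3, 26.3 and 15.4 CPM in Ephb2-KO libraries, against 29.2, 24.6 and 10.2 CPM in WT. Both the highest and the lowest value were WT. The log2 fold change was -0.07 (SE 0.43; 95% interval of the fold 0.469 to 1.94), and it was above 0 without Ephb2-KO replicate 3 (0.095), WT replicate 1 (0.22) or WT replicate 2 (0.042).

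Lin28a, on chr4 (134003330 to 134018841, minus strand), is the most abundant of the 8 and encodes the RNA-binding protein introduced above. It had 587, 333 and 186 CPM in Ephb2-KO libraries, against 364, 379 and 267 CPM in WT. The Ephb2-KO group held both the highest and the lowest library. The log2 fold change was 0.13 (SE 0.41; 95% interval of the fold 0.560 to 2.14), and it was -0.38 without Ephb2-KO replicate 1 and -0.0088 without WT replicate 3.

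Upp1, on chr11 (9118103 to 9136170, plus strand), encodes uridine phosphorylase, which splits uridine into uracil and ribose 1-phosphate. It had 11.2, 13.1 and 11.0 CPM in Ephb2-KO libraries, against 15.3, 14.7 and 19.8 CPM in WT. All Ephb2-KO values lay below all WT values, and Upp1 was the only one of the 7 with separate ranges. Over all tested genes 2.39% had separate ranges, and in 1.55% the Ephb2-KO range was the lower one. The log2 fold change was -0.49 (SE 0.28; 95% interval of the fold 0.449 to 1.12; edgeR unadjusted p 0.121, adjusted p 1.0). By exact permutation of the group labels, two-sided and on log2 CPM, p was 0.1, the smallest that 3 against 3 allows.

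The pairs of same-numbered lines gave Upp1 log2 differences, Ephb2-KO minus WT, of -0.44, -0.17 and -0.85 for pairs 1, 2 and 3. It was the only one of the 7 with 1 direction in 3 of 3 pairs; 12.3% of all tested genes were lower in 3 of 3 pairs and 15.6% were higher in 3 of 3. With the replicate number as a block, Upp1 had a log2 fold change of -0.48 (SE 0.19; 95% interval of the fold 0.538 to 0.950), with an edgeR unadjusted p of 0.0247 and an adjusted p of 0.741. Across all genes 6.47% had an unadjusted p under 0.05 in that fit, so 1 of 7 is no result about these genes. The block called 4 genes (0.0262%) after adjustment and 0 of the 7. Its log2 fold changes were -0.12 (SE 0.13) for Zbtb16, 0.24 (SE 0.15) for Sall4 and 0.23 (SE 0.14) for Foxo1. For Lin28a, Taf4b and Utf1 they were -0.0061 (SE 0.22), 0.11 (SE 0.13) and 0.016 (SE 0.21). Pair differences of the other genes had mixed signs: in pair 1, Sall4, Foxo1 and Lin28a were at 0.68, 0.57 and 0.69, against -0.07, -0.17 and -0.19 in pair 2. Lin28a was at -0.52 in pair 3.

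**Figure D2:**
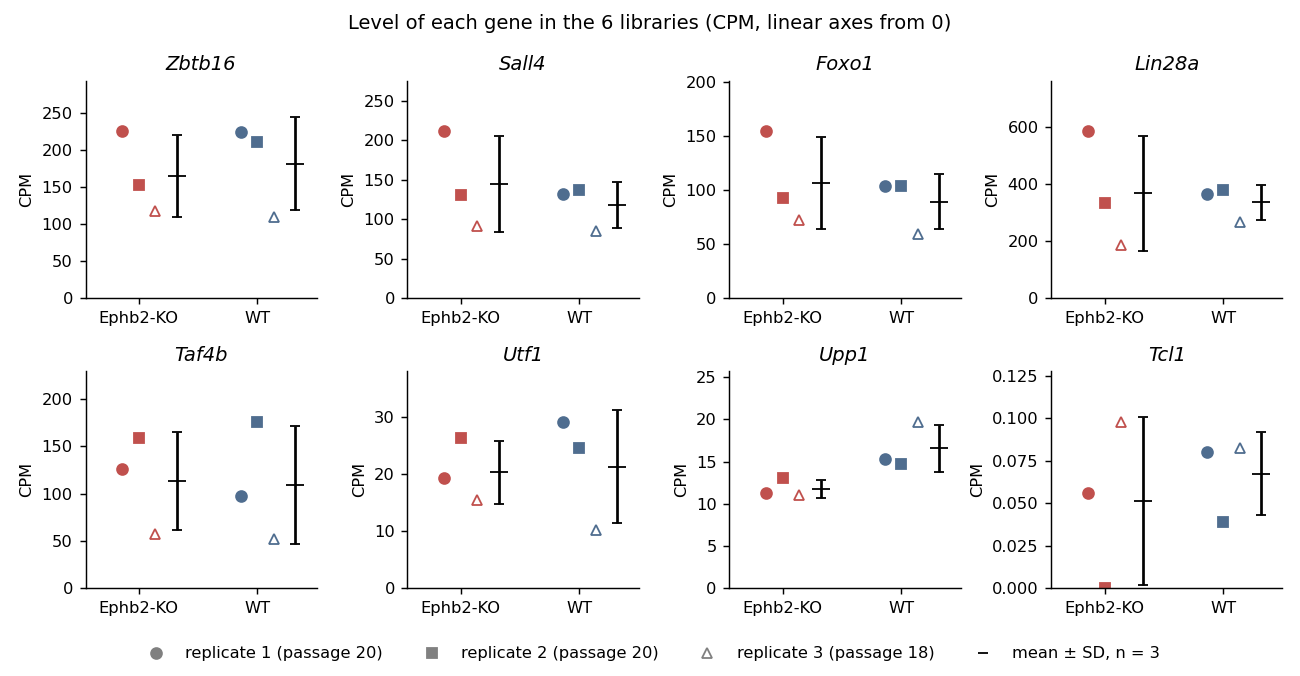
CPM of each of the 8 genes in each library, Ephb2-KO left and WT right, with the mean and SD of 3 libraries. The groups overlap for every tested gene except Upp1, whose Ephb2-KO libraries sit between 11.0 and 13.1 CPM, below the WT libraries at 14.7 to 19.8 CPM.

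The replicate numbers separated the libraries where the groups did not. In edgeR's test between the 3 numbers, with group as a covariate, 6 of the 7 genes passed, where 54.2% of all tested genes did. Lin28a (edgeR adjusted p 0.0283) did not pass with DESeq2 (adjusted p 0.175) or with no filter on low counts (edgeR adjusted p 0.124), which left 5 genes. Leaving out 1 library also ended calls: Lin28a and Utf1 without Ephb2-KO replicate 2 (edgeR adjusted p 0.195 and 0.0722), Lin28a and Sall4 without Ephb2-KO replicate 3 (0.184 and 0.0747), Lin28a without WT replicate 2 (0.301), and Zbtb16 and Utf1 without WT replicate 3 (0.0578 and 0.357). Log2 differences of replicate 3 over replicate 1 were -0.99 for Zbtb16, -0.94 for Sall4, -0.96 for Foxo1, -1.02 for Taf4b, -0.93 for Utf1 and -1.07 for Lin28a, so these 6 genes lay within a narrow span. Taf4b had the smallest adjusted p (4.4e-05) and stood apart in replicate 2, at 0.59 over replicate 1. Zbtb16, Sall4, Foxo1 and Lin28a were at -0.32, -0.33, -0.38 and -0.42 there, and Utf1 was at 0.07. Upp1 gave 0.09 for replicate 2 and 0.19 for replicate 3 over replicate 1, with an adjusted p of 0.756.

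Replicate 3 was also the only one at passage 18, so passage and replicate number cannot be told apart. Set as passage 20 over passage 18, 5 of the 7 genes were higher at passage 20, where 25.8% of all tested genes differed and 10.4% were higher. Taf4b averaged 140 ± 34.9 CPM at passage 20 (SD, n = 4) and 54.9 ± 3.07 CPM at passage 18 (SD, n = 2), which is 1.35 on the log2 scale (SE 0.26, edgeR adjusted p 0.0101). Zbtb16 averaged 204 ± 34.7 CPM at passage 20 and 114 ± 5.57 CPM at passage 18 (0.84, SE 0.20, edgeR adjusted p 0.0212). Utf1 averaged 24.9 ± 4.19 CPM at passage 20 and 12.8 ± 3.67 CPM at passage 18 (0.96, SE 0.29, edgeR adjusted p 0.0448).

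Sall4 had a log2 fold change of 0.78 (SE 0.21, edgeR adjusted p 0.0348) and Foxo1 one of 0.79 (SE 0.22, edgeR adjusted p 0.0363). Lin28a missed the threshold at 0.87 (SE 0.29, adjusted p 0.0611), with 416 ± 116 CPM at passage 20 and 226 ± 57.0 CPM at passage 18. It passed with DESeq2 (adjusted p 0.0156), with no filter on low counts (edgeR adjusted p 0.000325) and without Ephb2-KO replicate 1 (edgeR adjusted p 0.0342), which made 6 of the 7 in each. Upp1 stood at -0.14 (SE 0.24, adjusted p 0.714). For 6 of the 7 genes every passage 20 library lay above both passage 18 libraries, as did 26.6% of all tested genes. The calls rest on both replicate 3 libraries: without Ephb2-KO replicate 3, or without WT replicate 3, 0 of the 7 passed, with the lone passage 18 library then assumed to vary like the others. Leaving out Ephb2-KO replicate 2 left 4 calls, WT replicate 1 left 3 and WT replicate 2 left 2.

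Other cell markers moved with replicate number. The 15 fibroblast and stromal markers, all of them tested and none at 0, took 0.765%, 0.834% and 2.71% of counts in Ephb2-KO replicates 1, 2 and 3, against 0.508%, 0.681% and 2.36% in WT. They were thus highest in replicate 3 of both groups. The 8 measured general germ cell genes (Ddx4, Dazl, Mael, Tdrd1, Piwil2, Dnd1, Tex101 and Tex14) took 0.346%, 0.272% and 0.158% in Ephb2-KO replicates 1, 2 and 3, against 0.292%, 0.296% and 0.181% in WT, and were lowest in replicate 3 of both groups. Sertoli and Leydig markers, 7 of 13 tested and Hsd3b1 at 0 in every library, took 0.00668% to 0.00929% in Ephb2-KO and 0.00571% to 0.00915% in WT libraries. The part of either marker list in the members' passage values was not tested beyond the scaling given next. In bulk RNA, fewer germ cells and less of each mRNA per germ cell cannot be told apart.

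The same differences were therefore also measured per germ cell transcript, an alternative chosen after the data were seen, in which each library was scaled to its counts over those 8 germ cell genes. The median passage difference of all genes was then -0.66 on the log2 scale, and 0.06 with TMM. Zbtb16, Sall4, Foxo1, Utf1 and Lin28a were then at 0.10, 0.05, 0.05, 0.23 and 0.14, with edgeR adjusted p of 0.765, 0.891, 0.893, 0.622 and 0.677, all above that median. Taf4b had the most positive difference of the 7 at 0.61 (SE 0.25, fold 95% interval 1.07 to 2.20, adjusted p 0.0544), and Upp1 was lower at passage 20, at -0.85 (SE 0.31, adjusted p 0.0357), close to the all-gene median. Under this scaling 0.465% of all genes were higher and 42.4% lower at passage 20, against 0 and 1 of the 7. Between replicate numbers, Taf4b (adjusted p 0.00184) and Upp1 (0.0117) passed and the other 5 did not, where 58.1% of all genes passed.

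Member counts can be given as a percent of the counts of those germ cell genes. Taf4b stood at 3.89%, 5.59% and 3.38% in Ephb2-KO replicates 1, 2 and 3, against 3.67%, 5.79% and 2.82% in WT, so replicate 2 was highest in both groups. Lin28a stood at 18.2%, 11.7% and 11.0% in Ephb2-KO, against 13.7%, 12.4% and 14.3% in WT, and Ephb2-KO replicate 1 was alone at the top. Upp1 stood at 0.348%, 0.460% and 0.652% in Ephb2-KO, against 0.572%, 0.483% and 1.06% in WT, highest in replicate 3 of both groups. No gene of the 7 passed between Ephb2-KO and WT on this scale either (edgeR adjusted p 1.0).

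**Figure D3:**
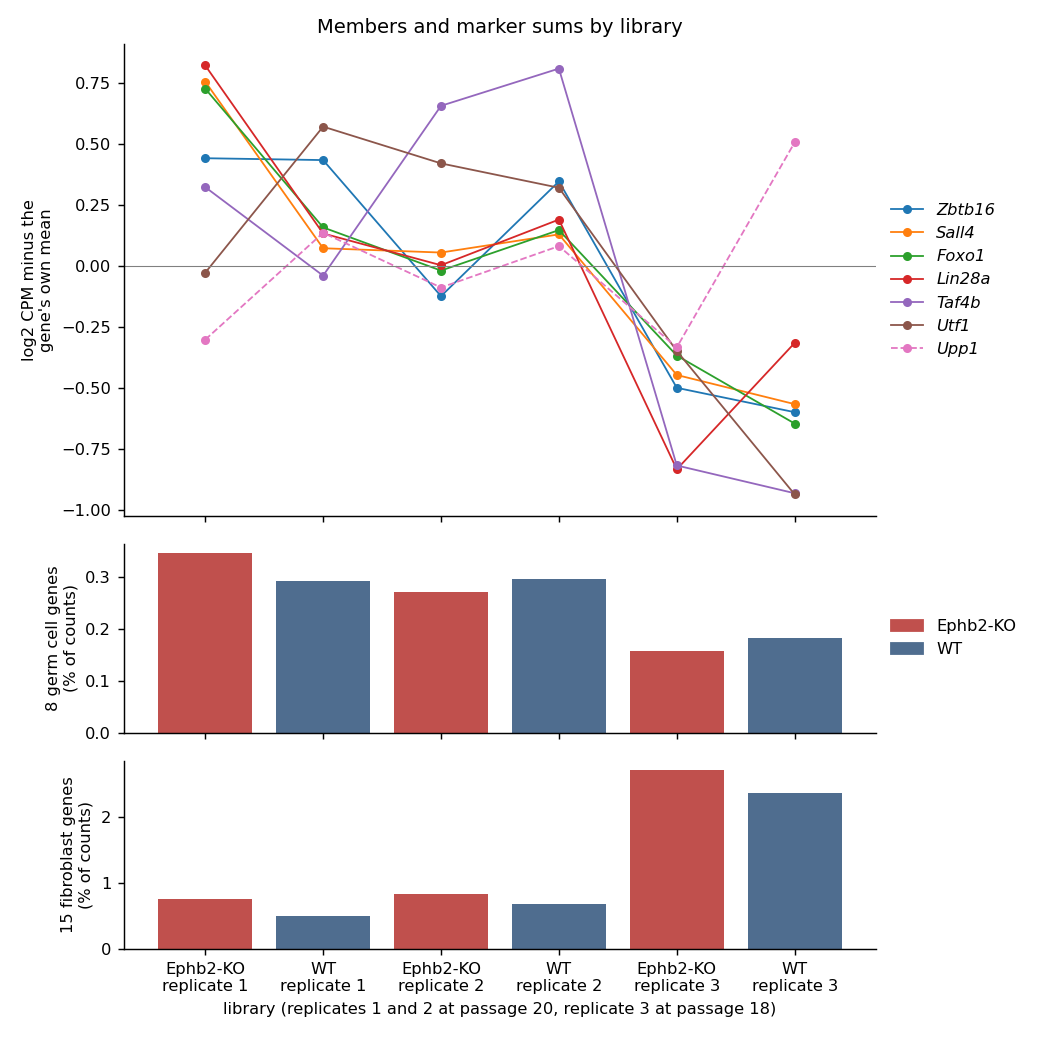
Log2 CPM of the 7 tested genes, each centred on its own mean, in the 6 libraries ordered by replicate number with Ephb2-KO before WT (upper panel; lines join the values of 1 gene), and the percent of counts in general germ cell genes and in fibroblast and stromal markers (lower panels). All genes but Upp1 are low in both replicate 3 libraries, where the fibroblast markers take 2.36% to 2.71% of counts.

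**Figure D4:**
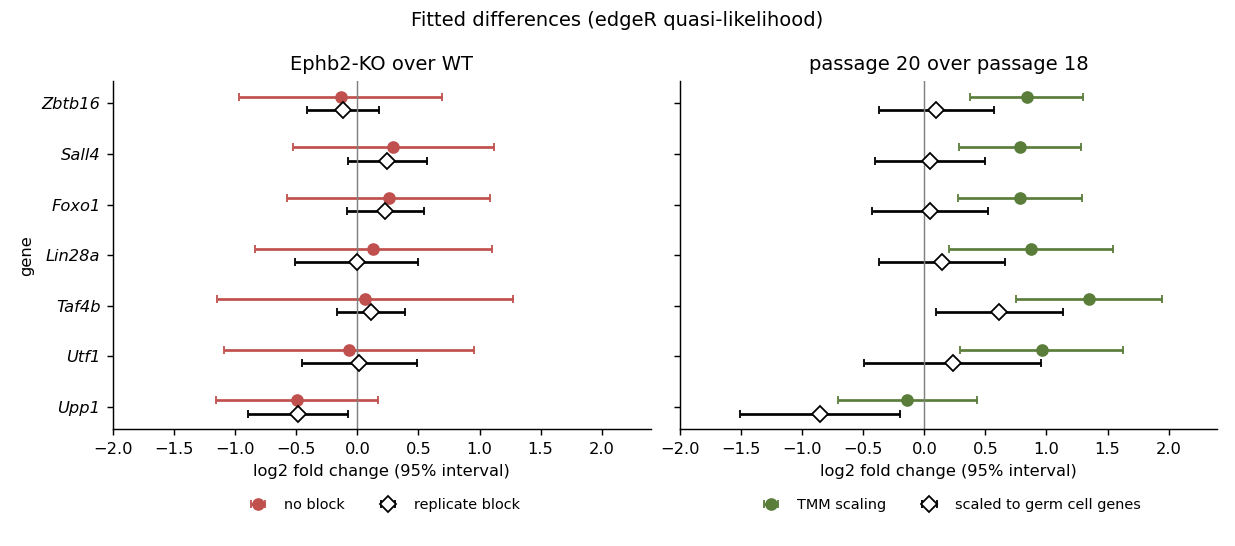
Log2 fold changes with 95% intervals of the 7 tested genes. Ephb2-KO over WT is shown without and with the replicate block (left), and passage 20 over passage 18 with TMM scaling and with scaling to germ cell genes (right); Upp1 has the lowest Ephb2-KO over WT value (-0.49), and Taf4b the highest passage value under both scalings (1.35 and 0.61).

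The difference between groups was not shown to depend on passage. In the interaction of group and passage 0 of the 7 passed, as did 0% of all genes (20 genes, or 0.131%, at an unadjusted p under 0.05). The widest interaction values were 0.83 (SE 0.53) for Lin28a and -0.83 (SE 0.57) for Utf1.

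The 7 genes were of ordinary variability. SDs of log2 CPM over the 6 libraries were 0.475 for Zbtb16, 0.473 for Sall4 and 0.475 for Foxo1, near the 57th percentile of tested genes. Taf4b varied most at 0.739 (79.9th percentile) and Upp1 least at 0.314 (33.0th percentile). Among the members, Foxo1 and Sall4 had the most alike profiles, with a root-mean-square difference of centred log2 CPM of 0.07 over the 6 libraries, and Taf4b and Upp1 the least alike at 0.80.

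The same measure over 11391 genes with a mean of at least 5 CPM gave the nearest profiles, all over the same 6 libraries. For Foxo1 these were Usp11 and Tmem130 (0.03 and 0.04), for Sall4 Itga7 and Foxo1 (0.06 and 0.07), and for Zbtb16 Smc3 and Snapc4 (0.06 and 0.07). Taf4b was nearest to 2900026A02Rik and Sf1 (0.06 and 0.07). Lin28a was nearest to Usp54 and Camk2b (0.11 and 0.12), Utf1 to Eya2 and Ddr1 (0.11 and 0.13), and Upp1 to Cml1 and Vcpkmt (0.11 each). With 6 libraries that share their replicate structure, such nearness is a description of these libraries.

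Lists of genes that work with the 8 held no gene that passed between Ephb2-KO and WT, with or without the block. Of 20 tested partners of ZBTB16 and SALL4, mostly subunits of corepressor complexes, 16 were above 0 and 4 below (median log2 fold change 0.05, against 0.01 over all tested genes). Over all 15263 tested genes 8083 were above 0 and 7180 below. Whether any list departs from that share was not tested. Sall1 had the value with the smallest p among them, 0.72 (SE 0.67). Among 21 genes of the PI3K, AKT and FOXO pathway 15 were above 0 (median 0.09), with Pik3r2, a regulatory subunit of PI3K, at 0.36 (SE 0.25) and Foxo3 at 0.27 (SE 0.23). The 11 genes of LIN28 and let-7 handling had a median of -0.01 and 14 let-7 targets one of 0.06.

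The 16 tested TFIID subunits had a median of -0.09, with 11 below 0, among them Tbp, the TATA-binding subunit, at -0.17 (SE 0.17). The 15 tested pyrimidine genes had a median of -0.03; Uck2, a kinase that salvages uridine, was at 0.18 (SE 0.20). Other genes of undifferentiated spermatogonia (27 tested) had a median of -0.06, with 11 above 0 and 16 below. The 2 with the smallest p were Pou5f1, the octamer-binding factor, at -0.59 (SE 0.34) and Nanos3, an RNA-binding regulator, at -0.36 (SE 0.32). Values in that list ran from -1.10 (SE 1.34) for Neurog3 to 0.63 (SE 0.60) for Pax7. Differentiating genes (11 tested) had a median of 0.08, with 7 above 0, 4 below and 0 passing. Smallest in p were Crabp1 at 0.46 (SE 0.23) and Stra8 at 0.78 (SE 0.69). In the block fit 0 of them passed, and 4 were higher in Ephb2-KO in 3 of 3 pairs, against 15.6% of all tested genes. General germ cell genes (8 tested) had a median of -0.02, with 4 above 0 and 4 below. Fibroblast and stromal markers had a median of 0.36, with 14 of 15 above 0 and 0 passing. With the replicate block their median was 0.40, with 15 of 15 above 0 and 0 passing, where 8084 of all 15263 tested genes were above 0. In 3 of 3 pairs 12 of the 15 were higher in Ephb2-KO, against 15.6% of all tested genes. Whether their level bears on the values above was not tested.

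Between passages the lists divided, and their counts turned on the scaling. With TMM, of the 20 partners of ZBTB16 and SALL4, 7 were higher at passage 20 and 0 lower, including Sall1 (log2 fold change 1.86, edgeR adjusted p 0.00781) and Chd4, the helicase of the NuRD complex (1.09, edgeR adjusted p 0.0167). In the PI3K, AKT and FOXO list 6 were higher and 3 lower, with Mtor at 1.22, Akt1 at -0.77 and Pik3r1 at -1.39 (edgeR adjusted p 0.00484, 0.00638 and 0.00268). Of the LIN28 and let-7 handling genes 5 of 11 were higher and 1 lower, and Dicer1, which cuts precursor microRNAs, stood at 1.21 (edgeR adjusted p 0.00368). Lin28b was higher by 0.86.

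TFIID subunits had 4 of 16 higher and 0 lower, with Taf5 at 0.91 and Taf3 at 0.97, whereas Taf4a was at 0.27 (edgeR adjusted p 0.590) beside 1.35 for Taf4b. Pyrimidine genes had 2 of 15 higher and 5 lower, with Dpyd, which degrades uracil, at -2.79 (edgeR adjusted p 0.00246) and Cad, the first enzyme of pyrimidine synthesis, at 1.33 (edgeR adjusted p 0.0231). Other undifferentiated genes had 13 of 27 higher and 1 lower. Among the higher were Ret, a receptor for the neurotrophic factor named above, at 1.20 and Sox3 at 1.23. Differentiating genes had 5 of 11 higher, among them Kit, the receptor that marks differentiating spermatogonia, at 1.74 (edgeR adjusted p 0.00517). General germ cell genes had 5 of 8 higher, and fibroblast and stromal markers 12 of 15 lower. Over all tested genes 10.4% were higher and 15.4% lower. When scaled to germ cell genes, 2 of the ZBTB16 and SALL4 partners were higher and 7 lower, and in the PI3K, AKT and FOXO list 0 were higher and 6 lower. LIN28 and let-7 handling had 0 higher and 3 lower, TFIID 0 and 5, the pyrimidine genes 0 and 10, and other undifferentiated genes 3 and 2. Differentiating genes had 1 higher and 2 lower, and fibroblast and stromal markers 0 and 14. General germ cell genes had 0 and 1, but this scaling holds their summed counts equal between libraries, so that count is no result about passage. Over all genes 0.465% were higher and 42.4% lower on that scale. The median of the partners was then -0.28, of the PI3K list -0.37, of TFIID -0.46 and of other undifferentiated genes 0.15, against -0.66 over all genes.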

How the data were processed

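RNA was measured in 6 libraries of cultured mouse spermatogonial stem cell lines. Each library's deposited table gives unnormalised read counts by gene and summed exon lengths; per the file headers, the authors counted with featureCounts 1.4.6-p4 over GENCODE vM3 exons grouped by gene name, reversely stranded, leaving out reads that map to several places. The submitters' processing notes name STAR, FastQC and GRCm38.p3, with STAR and FastQC versions not given in the sources used here.

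Tests ran in edgeR 4.0.16 (R 4.3.3): filterByExpr (15263 genes), TMM, glmQLFit with robust estimation and glmQLFTest, Benjamini-Hochberg over all tested genes, threshold 0.05. The code was first tested on simulated data with a coefficient of variation of 0.166. For Ephb2-KO over WT these data held no replicate differences. They therefore do not show what the fit without the block could find here. CPM uses TMM-scaled library sizes; log2 CPM has a prior count of 2. SE is the log2 fold change over the square root of F. DESeq2 1.42.0, another filter or scaling, the replicate block and leaving out libraries were alternatives. Exact tests used SciPy 1.17.1.

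Same-numbered libraries deviated together from their group means (correlations over genes of 0.596, 0.736 and 0.850 for numbers 1, 2 and 3). The labels state no pairing, so the main Ephb2-KO over WT fit used no block, and the replicate block was an alternative. Libraries of 1 group differed by more than sampling noise. The members and gene lists were chosen with earlier results of these data known. Named list genes were drawn from up to 4 passing members, otherwise from the 2 with the smallest p, and from a set list of genes tied to a member. Not every gene that this rule gives is named. For the other undifferentiated genes, the lowest and highest Ephb2-KO over WT values are also named.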

Additional observations from a re-analysis of the deposited data

How the results depend on the processing

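Between Ephb2-KO and WT, 0 of the 7 tested genes passed under any of the alternatives run, while the count over all genes was 4 with DESeq2, 4 with the replicate block and 0 to 56 when libraries or pairs were left out (56 with the block and without pair 1). Directions were weak. Under the replicate block Lin28a stood at -0.0061 and Utf1 at 0.016. Over the fits without 1 library, the log2 fold change ran from -0.43 to 0.057 for Zbtb16, -0.088 to 0.54 for Sall4, -0.12 to 0.47 for Foxo1, -0.38 to 0.45 for Lin28a, -0.27 to 0.60 for Taf4b, -0.40 to 0.22 for Utf1 and -0.57 to -0.35 for Upp1. With the replicate block and without 1 pair, it ran from -0.23 to 0.054 for Zbtb16, 0.022 to 0.41 for Sall4, 0.054 to 0.43 for Foxo1, -0.35 to 0.25 for Lin28a, -0.022 to 0.24 for Taf4b, -0.25 to 0.33 for Utf1 and -0.64 to -0.31 for Upp1. The replicate block changed no call among the 7: 0 passed with it and 0 without it. Between replicate numbers the count of genes ran from 4442 to 10084 and that of members from 4 to 6 when a library was left out, and 2 members passed when scaled to germ cell genes. Between passages the counts ran from 284 to 4187 genes and from 0 to 6 members, with 325 genes without Ephb2-KO replicate 3 and 284 without WT replicate 3; 6536 genes and 1 member passed when scaled to germ cell genes. The passage value of Upp1 ran from -0.40 to 0.14. For the interaction, 7 genes passed with no filter, where Foxo1 stood at 0.066 and Taf4b at 0.025; Sall4 stood at -0.026 when scaled to germ cell genes. The cause of these changes was not tested. Tcl1 alone among the 8 stayed at or below the floor of 3 counts in every library. For the others the SE of Ephb2-KO over WT was smaller with the replicate block than without it. It was 0.13 against 0.51 for Taf4b and 0.19 against 0.28 for Upp1. What sets the width of the intervals was not tested.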
